A study of Mus musculus with 7 samples.

Results

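Matrix proteases, their inhibitors and the lysyl oxidases that crosslink collagen were followed in whole kidneys of mouse embryos at E15.5. The genes were chosen by symbol alone: numbered Adam genes, all Adamts and Adamtsl genes, numbered Mmp genes, Timp1 to Timp4, and Lox with Loxl1 to Loxl4. This gave 54 of the 16167 genes in the authors' table, namely 11 MMP, 13 ADAM, 18 ADAMTS, 4 ADAMTSL, 3 TIMP and 5 LOX genes. Genes below a mean of 18.5 normalized counts are not in the table, and family members missing from it were not analysed here.

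The 4 mutant libraries carried Six2-Cre and floxed Irx3 and Irx5 alleles on both chromosomes, Irx3/5(loxP/loxP). The 3 control libraries were littermates with a floxed allele on one chromosome, Irx3/5(loxP/+), their genotype label is WT, and no Cre is named for them. Six2-Cre is active in nephron progenitors, so stromal, ureteric, endothelial and blood cells of the same kidneys are outside the cells in which Cre is meant to act. A consequence of Cre itself and one of losing Irx3 and Irx5 therefore cannot be told apart. The labels give no number of embryos per library, so p-values measure only the spread between these libraries.

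MMPs are zinc endopeptidases that cut collagens and other matrix proteins, and TIMPs block them. ADAM proteases sit in the cell membrane and release the outer parts of receptors and growth factors, whereas ADAMTS proteases are secreted and cut proteoglycans, procollagens and microfibril proteins. ADAMTS-like proteins keep the accessory domains and lack the protease, and lysyl oxidases oxidise lysines so that collagen and elastin fibres become crosslinked. In the growing kidney these proteins act around the branching ureteric tree, in the stroma and at vessel walls.

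Recovered reads over all listed genes ranged between 45539155 and 53497462 in mutants and between 40511920 and 69028943 in controls. Of the targeted genes, Irx3 was lower in every mutant, at 6.63, 3.98, 5.57 and 6.75 FPKM (fragments per kilobase of gene, scaled to library size) in mutants, against 14.7, 14.2 and 12.7 FPKM in controls (limma adjusted p = 0.0144). Irx5 showed no such reduction, at 2.05, 0.895, 1.13 and 2.03 FPKM in mutants, against 1.36, 1.55 and 1.59 FPKM in controls, on 131 to 345 reads (log2 fold change -0.01, SE 0.17; limma adjusted p = 0.989). Mutant replicates 1 and 4 lay above every control and replicates 2 and 3 below. Irx3 thus separates the libraries by their labels and Irx5 does not; the exons flanked by loxP sites are not given in the labels. The kidney markers Six2 (nephron progenitors), Foxd1 (stroma) and Nphs1 (podocytes) were above 3 FPKM in all 7 libraries. Long transcripts behaved differently between libraries. Of the 3361 tested genes with the longest transcripts (above 4672 bases), 64.1% had their lowest value in mutant replicate 1 and 31.3% their highest in mutant replicate 3. Of the 54 genes described here, 27 fall in that length class. With the length trend removed, limma called 0 of the 43 tested, and Mmp2, Mmp14, Adamtsl4 and Adamts19 had log2 fold changes of 0.35, 0.20, 0.45 and 0.25, close to the values given below.

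The levels covered a wide range and the order of the families was the same in both genotypes. Summed over the 11 genes, MMP RNA was at 184 ± 10.5 FPKM in mutants and 157 ± 9.24 FPKM in controls (SD, n = 4 and 3). The ADAM genes summed to 135 ± 10.3 FPKM in mutants and 129 ± 3.78 FPKM in controls. ADAMTS genes, though the most numerous, came to 102 ± 10.4 FPKM in mutants and 95.0 ± 7.54 FPKM in controls. The 3 TIMP genes reached 81.3 ± 3.80 FPKM in mutants and 80.0 ± 7.01 FPKM in controls, and the 5 LOX genes 56.2 ± 5.41 FPKM in mutants and 54.4 ± 6.50 FPKM in controls. The 4 ADAMTSL genes gave only 4.22 ± 0.87 FPKM in mutants and 3.53 ± 0.91 FPKM in controls. The MMP sum was the only one of the 6 whose libraries did not overlap. It was 171 to 193 FPKM in mutants and 152 to 168 FPKM in controls. Most of it came from Mmp14 and Mmp2, which averaged 64.3 and 56.2 FPKM over the 7 libraries. Mmp23, Mmp28 and Mmp9 had lower means in mutants than in controls. The family sums carry no test.

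**Figure D1:**
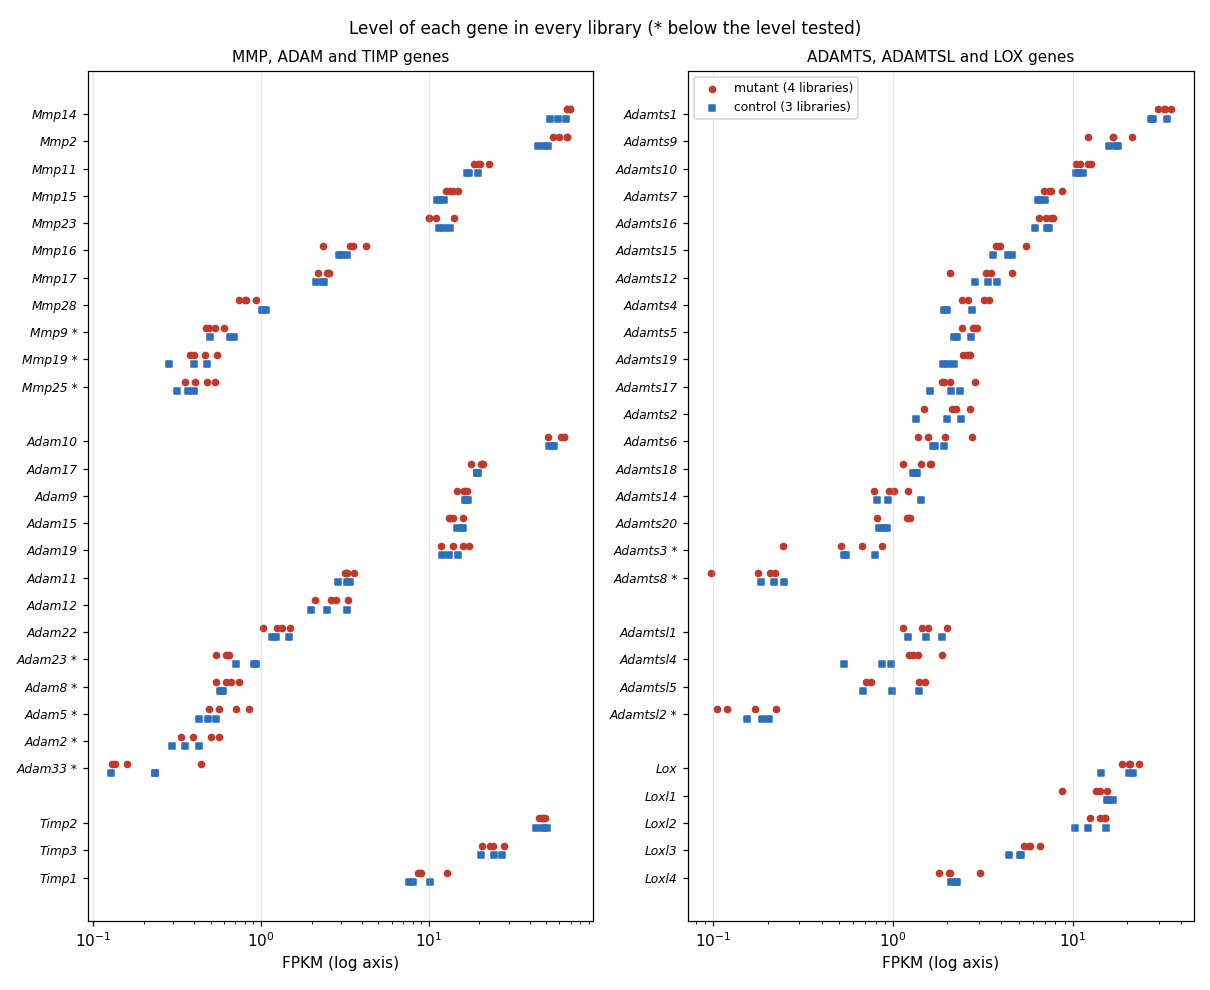
FPKM of all 54 genes in every library on a log axis, by family and in order of level; red circles are the 4 mutant libraries and blue squares the 3 controls. Mmp14, Adam10 and Mmp2 lie highest, near 60 FPKM, and most genes show overlapping groups.

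No gene of the 54 passed the test across the whole table. The test compared log2(FPKM + 1) between genotypes with limma for the genes that reached 1 FPKM in 3 libraries, 43 of the 54, with a Benjamini-Hochberg adjusted p under 0.05 as the threshold. It called 0 of 43 higher and 0 of 43 lower. Over all 13466 genes tested it called 1.53%, of which 0.475% were higher and 1.05% lower, so a count of 0 among 43 is near the background. At an unadjusted p under 0.05, limma gave 6 of the 43 higher (14.0%, against 5.26% of all genes tested) and 0 lower (against 8.48%). In the authors' deposited table, which tested all 54, DESeq2 had 3 genes higher (5.56%, against 1.75% of all genes) and 0 lower (against 3.74%), where 5.49% of all genes were called in either direction. Those 3 were Mmp2, Adamtsl4 and Adamts19. When limma down-weighted the more variable libraries, 4 of the 43 were higher (Mmp2, Mmp15, Adamtsl4 and Adamts19; 3.22% of all genes) and 1 lower (Adam15; 6.45% of all genes).

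Most differences were small and leaned upwards. Of the 43 genes, 32 had a fold change above 0 and 11 below, and the median was 0.066 on the log2 scale, against 6629 of 13466 above 0 and a median of -0.002 for all genes tested. The count above 0 was 24 of 40 genes without mutant replicate 3 and 25 of 42 without control replicate 3. All 4 mutants lay above all 3 controls for 6 of the 43 genes (14.0%, background 5.93%), which were Mmp2, Mmp14, Mmp15, Adamtsl4, Adamts19 and Loxl3. They lay below all controls for 1 of the 43, Mmp28 (2.3%, background 8.61%), and for Adam23 among the 11 genes too low to be tested. These shares are descriptions of the set.

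**Figure D2:**
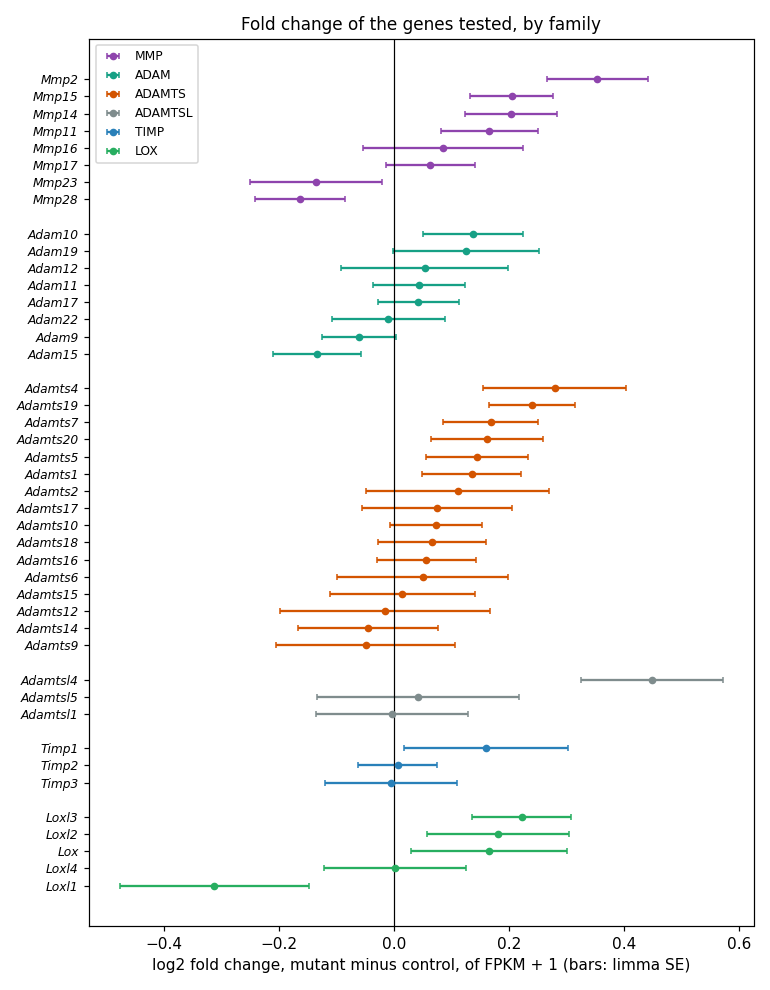
limma log2 fold change of each of the 43 genes tested, as mutant minus control in log2(FPKM + 1), with its standard error, by family. Adamtsl4 lies farthest above 0, at 0.45, and Loxl1 farthest below, at -0.31 (-0.15 without mutant replicate 2); none passed the threshold.

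Among the MMPs, the gelatinase gene Mmp2 (ENSMUSG00000031740.9) stood apart most clearly. Its enzyme degrades denatured collagen and type IV collagen, and in mouse kidney it is made mainly by mesenchyme. Mmp2 was at 66.5, 54.7, 67.1 and 60.02 FPKM in mutants, against 51.5, 44.8 and 48.6 FPKM in controls. The lowest mutant, replicate 2, exceeded the highest control, replicate 1, by little more than 3 FPKM, and the means stood 1.29-fold apart. The limma log2 fold change was 0.35 (SE 0.088; limma adjusted p = 0.0924), and the authors' deposited table gave 0.36 (SE 0.10; adjusted p = 0.0105). The fold change ran from 0.30 to 0.41 when other settings were used or single libraries were left out.

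Mmp2 also lies close to the targeted locus. In the RefSeq gene order of mouse assembly GRCm38.p6, the protein-coding genes Fto, Irx3, Irx5, Irx6, Mmp2 and Lpcat2 follow one another along the chromosome. Lpcat2, on the other side of Mmp2, was at 1.14 ± 0.15 FPKM in mutants and 1.32 ± 0.091 FPKM in controls (SD, n = 4 and 3; limma adjusted p = 0.661). Irx5, on the near side, had overlapping groups, as given above. Of Irx5, Mmp2 and Lpcat2, only Mmp2 had all mutants above all controls.

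Mmp14 encodes the membrane protease that activates the Mmp2 proenzyme, in a complex in which Timp2 serves as the link. It had the highest mean of the 54 genes, and stood at 69.0, 66.8, 69.9 and 66.5 FPKM in mutants, against 66.1, 59.1 and 52.5 FPKM in controls. The mutants were close together and all just above control replicate 1, while the controls were spread. The log2 fold change of 0.20 (SE 0.080) missed the threshold (limma adjusted p = 0.296; 0.262 by DESeq2 in the authors' deposited table). Without control replicate 3 it was 0.12, and without control replicate 1 it was 0.28.

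Mmp15, a related membrane-type enzyme, was at 13.5, 12.6, 14.9 and 14.0 FPKM in mutants, against 12.3, 11.2 and 11.7 FPKM in controls. The groups did not overlap, with a narrow gap between mutant replicate 2 and control replicate 1 (log2 fold change 0.20, SE 0.072; limma adjusted p = 0.235). Mmp11, a secreted stromelysin, had means of 20.3 ± 1.85 FPKM in mutants and 18.0 ± 1.40 FPKM in controls, with overlap. The membrane-bound Mmp16, Mmp17 and Mmp23 averaged 3.24, 2.37 and 11.8 FPKM over the 7 libraries, all with overlapping groups. Mmp28, the epilysin gene, was the tested member that lay lower in every mutant, with 0.82 ± 0.080 FPKM in mutants and 1.04 ± 0.029 FPKM in controls (log2 fold change -0.16, SE 0.078; limma adjusted p = 0.417). The limma scale understates changes of genes near 1 FPKM, and the authors' deposited table gave -0.34 (SE 0.17, DESeq2 adjusted p = 0.331). Mmp28 rested on 134 to 290 reads per library. Mmp9, the other gelatinase, and Mmp19 and Mmp25 stayed below 0.7 FPKM in all libraries and were not tested.

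None of the 3 inhibitor genes passed the test by limma or in the authors' deposited table, and all had overlapping groups; at an unadjusted p under 0.05 limma also called 0. Timp2 was at 47.4, 48.0, 49.4 and 45.3 FPKM in mutants, against 50.6, 48.0 and 43.4 FPKM in controls. The mutant values lie inside the range of the controls, and the log2 fold change was 0.01 (SE 0.069; limma adjusted p = 0.988). Timp3, which binds to the matrix and also inhibits ADAM proteases, was at 24, 27.9, 20.9 and 23.1 FPKM in mutants, against 27.2, 24.5 and 20.6 FPKM in controls (log2 fold change -0.01, SE 0.11; limma adjusted p = 0.994). Its libraries were spread alike in both genotypes. Timp1, a secreted inhibitor, was at 12.8, 8.83, 8.97 and 8.58 FPKM in mutants, against 7.64, 10.1 and 8.09 FPKM in controls. Only mutant replicate 1 exceeded the controls, and the log2 fold change was 0.16 (SE 0.14; limma adjusted p = 0.736). It was 0.04 without mutant replicate 1, 0.09 without control replicate 1 and 0.27 without control replicate 2.

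Set against Timp2 within each library, the 2 proteases of the activation complex were higher in mutants. The ratio of Mmp2 to Timp2 FPKM was 1.40, 1.14, 1.36 and 1.33 in mutants, against 1.02, 0.932 and 1.12 in controls. The ratio of Mmp14 to Timp2 was 1.46, 1.39, 1.42 and 1.47 in mutants, against 1.31, 1.23 and 1.21 in controls. Both ratios separated the genotypes without overlap, the first by a narrow margin between mutant replicate 2 and control replicate 3. They were formed after the values were seen and are given as descriptions. The ratio of Mmp2 to Mmp14 overlapped, with 0.818 to 0.963 in mutants and 0.758 to 0.925 in controls.

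**Figure D3:**
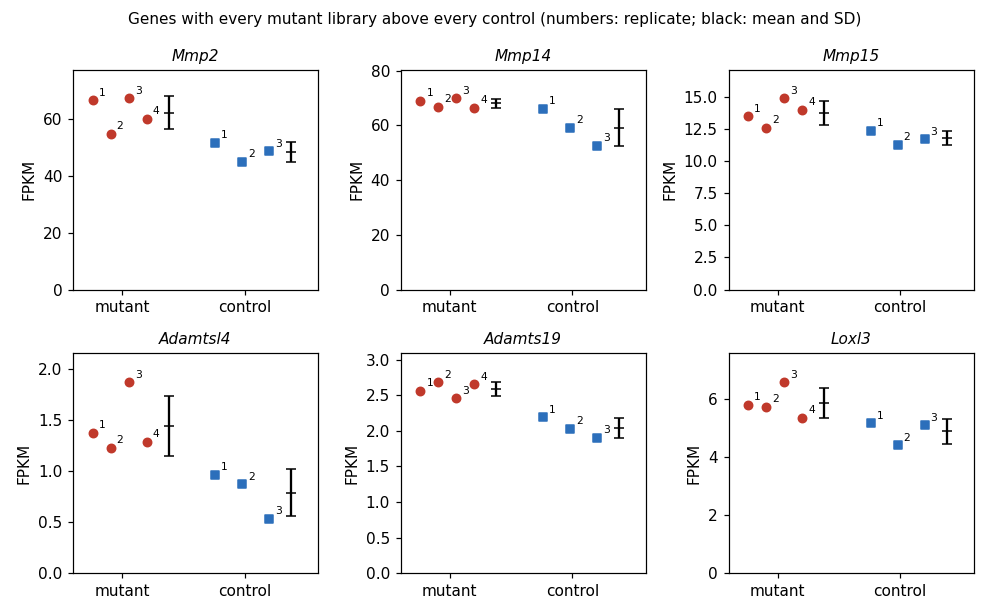
FPKM in each library, with mutants at left (red circles) and controls at right (blue squares), of the 6 tested genes whose mutant libraries all lie above the controls; numbers are replicates and black bars are mean and SD. The gap between groups is narrow for Mmp14, Mmp15 and Loxl3.

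The sheddases were the most abundant ADAM genes, and their groups overlapped. Adam10, which makes the first cut in Notch receptors after ligand binding, was at 51.1, 64.2, 61.4 and 63.6 FPKM in mutants, against 55.7, 55.0 and 52.4 FPKM in controls. Mutants 2, 3 and 4 were above every control and mutant 1 was below all of them; the log2 fold change was 0.14 (SE 0.086; limma adjusted p = 0.586). Adam17, which releases TNF and ligands of the EGF receptor, was at 17.8, 21.2, 20.8 and 20.4 FPKM in mutants, against 19.4, 19.5 and 19.3 FPKM in controls. It shows the same arrangement, with mutant 1 lowest and the other mutants above the controls (log2 fold change 0.04, SE 0.071; limma adjusted p = 0.895). For both genes the controls were closer together than the mutants.

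Adam15, a membrane protease with an integrin-binding domain, was at 15.9, 13.3, 14.0 and 13.2 FPKM in mutants, against 14.8, 16.1 and 15.8 FPKM in controls. Mutant 1 lay among the controls and the other mutants below them (log2 fold change -0.13, SE 0.077; limma adjusted p = 0.529). Adam9 and Adam19 averaged 16.3 and 14.2 FPKM over the 7 libraries and Adam11, Adam12 and Adam22 between 1 and 4 FPKM, with overlap. Adam23, which like Adam11 and Adam22 lacks the zinc-binding motif and binds LGI proteins in the nervous system, was at 0.608 ± 0.047 FPKM in mutants and 0.850 ± 0.12 FPKM in controls. All its mutants lay below the controls, on 194 to 425 reads, and in the authors' deposited table DESeq2 missed the threshold (log2 fold change -0.49; adjusted p = 0.0655). The neuron and neural crest list, of which 4 of 7 markers are listed, summed to 4.28 to 9.07 FPKM in mutants and 5.62 to 11.4 FPKM in controls. Its 2 tested markers went opposite ways. Elavl4 was lower, at 1.10 ± 0.11 FPKM in mutants and 2.08 ± 0.24 FPKM in controls (limma adjusted p = 0.0296), with all mutants below all controls. The other had a fold change above 0 and was not called. The part of these markers in the Adam23 value was not tested. Adam2 and Adam5, known from sperm, and Adam8 and Adam33 were below 0.9 FPKM throughout.

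The ADAMTS proteases can be read by substrate. Adamts1 and Adamts9 cut versican and were the most abundant. Adamts1 was at 29.8, 32.5, 32.3 and 35 FPKM in mutants, against 33.4, 28.0 and 27.1 FPKM in controls, with control replicate 1 inside the range of the mutants (log2 fold change 0.13, SE 0.086; limma adjusted p = 0.593). Adamts5, its neighbour in the RefSeq order of protein-coding genes, was at 2.74 ± 0.23 FPKM in mutants and 2.39 ± 0.28 FPKM in controls. Adamts9 was at 12.1, 16.8, 21.3 and 16.7 FPKM in mutants, against 17.9, 15.9 and 17.4 FPKM in controls. Its lowest and its highest library were both mutants, replicates 1 and 3 (log2 fold change -0.05, SE 0.16; limma adjusted p = 0.951). Adamts4, an aggrecanase, was at 2.42, 2.62, 3.19 and 3.41 FPKM in mutants, against 2.00, 2.75 and 1.93 FPKM in controls. Control replicate 2 overlapped with the mutants, and the log2 fold change of 0.28 (SE 0.12) missed the threshold (limma adjusted p = 0.370).

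Adamts19 (ENSMUSG00000053441.6) was the ADAMTS gene with separate groups; variants of it are known to cause heart valve disease, and its substrates are not well established. It was at 2.56, 2.68, 2.46 and 2.65 FPKM in mutants, against 2.19, 2.03 and 1.90 FPKM in controls. The libraries of each genotype were close together. The gap between the groups was wider than the spread within the mutants but narrower than the spread within the controls. The limma log2 fold change was 0.24 (SE 0.075; limma adjusted p = 0.171), and the authors' deposited table gave 0.34 (SE 0.11; adjusted p = 0.0346). It was between 0.21 and 0.34 under the alternatives that kept the gene, which a minimum of 5 FPKM did not, and unlike Adamts9 it did not have its extremes in mutants 1 and 3.

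The remaining ADAMTS genes showed overlap throughout. Adamts2, Adamts3 and Adamts14, which remove the N-terminal propeptide of procollagens, averaged 2.13, 0.572 and 0.986 FPKM in mutants and 1.91, 0.625 and 1.06 FPKM in controls. Adamts10, Adamts6 and Adamts17, which bind or act on fibrillin microfibrils, averaged 11.5, 1.91 and 2.18 FPKM in mutants and 10.9, 1.77 and 2.02 FPKM in controls. Adamts7 and Adamts12, which degrade cartilage oligomeric matrix protein, averaged 7.66 and 3.36 FPKM in mutants and 6.69 and 3.33 FPKM in controls. Across the 18 ADAMTS genes, mutant replicate 3 held the highest value for 11 and control replicate 3 the lowest for 7, with mutant replicate 1 lowest for another 6.

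Adamtsl4 (ENSMUSG00000015850.12) had the largest fold change of the 43. Its protein binds fibrillin-1 and is best known from the zonule fibres that hold the lens. It was at 1.38, 1.23, 1.87 and 1.29 FPKM in mutants, against 0.968, 0.872 and 0.534 FPKM in controls, on 92 to 362 reads per library. All mutants were above all controls; mutant replicate 3 was the highest and control replicate 3 the lowest of the 7. The means stood 1.82-fold apart. The limma log2 fold change was 0.45 (SE 0.12; limma adjusted p = 0.123), a scale that understates changes of genes near 1 FPKM, and the authors' deposited table gave 0.86 (SE 0.24; adjusted p = 0.0113). Without mutant replicate 3 the limma value was 0.37, and without control replicate 3 it was 0.34.

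Adamtsl4 lies between Mcl1, a survival gene of the Bcl2 family, and Ecm1, which encodes a secreted matrix protein, in the RefSeq order. Mcl1 was at 57.7 ± 3.38 FPKM in mutants and 57.4 ± 2.53 FPKM in controls (SD, n = 4 and 3; limma log2 fold change 0.00; limma adjusted p = 0.992). Ecm1 was at 58.4 ± 10.8 FPKM in mutants and 31.9 ± 3.29 FPKM in controls (SD, n = 4 and 3; limma log2 fold change 0.84; limma adjusted p = 0.0319). Every mutant lay above every control for Ecm1, as for Adamtsl4, and not for Mcl1. Adamtsl1 was at 1.14, 1.56, 1.99 and 1.44 FPKM in mutants, against 1.86, 1.52 and 1.21 FPKM in controls, and the log2 fold change was -0.00 (SE 0.13; limma adjusted p = 0.998). Adamtsl5 was at 1.51, 0.707, 1.39 and 0.749 FPKM in mutants, against 1.40, 0.986 and 0.676 FPKM in controls (log2 fold change 0.04, SE 0.18; limma adjusted p = 0.965). Both varied as much within a genotype as between genotypes, and Adamtsl2 was below 0.3 FPKM. Adamtsl5 rested on 73 to 257 reads per library.

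The promoter windows of Adamtsl4, with the largest fold change, and of Mmp14, with the highest level, are shown because they hold the feature most common among these genes. RefSeq windows on GRCm38.p6, from 250 bases before to 50 after the start, were at hand for 29 of the 54 genes, in 32 windows. In capitals is the GC box GGGCGG, searched on both strands; adjacent boxes can overlap.
Adamtsl4, chr3:95687868-95688167, minus strand: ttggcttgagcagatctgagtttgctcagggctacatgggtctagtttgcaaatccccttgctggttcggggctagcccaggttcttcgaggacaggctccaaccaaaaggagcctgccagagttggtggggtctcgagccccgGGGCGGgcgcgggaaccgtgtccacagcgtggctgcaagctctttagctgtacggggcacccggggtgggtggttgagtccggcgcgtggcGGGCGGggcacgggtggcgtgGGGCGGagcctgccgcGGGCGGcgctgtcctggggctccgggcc
Mmp14, chr14:54431348-54431647, plus strand: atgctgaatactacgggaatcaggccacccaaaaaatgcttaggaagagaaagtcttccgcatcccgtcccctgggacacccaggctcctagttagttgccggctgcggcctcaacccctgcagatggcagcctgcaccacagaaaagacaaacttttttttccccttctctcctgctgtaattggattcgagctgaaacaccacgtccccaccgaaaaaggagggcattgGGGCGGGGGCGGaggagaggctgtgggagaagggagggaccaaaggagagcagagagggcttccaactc
The Adamtsl4 window holds 4 such boxes and the Mmp14 window 2. A GC box stands in 78.1% of the 32 windows, against 60.2% of the windows of all genes in the authors' table and 35.7% of all RefSeq windows. The Iroquois motif ACANNTGT, the same on both strands, was found in 1 of the 32 windows, that of Adam19, against 4.1% of the windows of listed genes and 7.4% of all windows. The AP-1 motif TGANTCA was likewise found only for Adam19 (5.1% of the windows of listed genes and 7.8% of all windows). The TATAAA box was found in 2 of the 32 windows, for Adamts1 and Adamtsl2, against 7.5% of the windows of listed genes and 13.6% of all windows.

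The lysyl oxidases divided by member. Lox, which crosslinks collagen and elastin, was at 20.9, 20.6, 23.4 and 18.7 FPKM in mutants, against 21.5, 20.5 and 14.3 FPKM in controls. Control replicate 3 was the one low library; the log2 fold change was 0.16 (SE 0.14; limma adjusted p = 0.705), and -0.01 without that library. Loxl2, which acts on type IV collagen, was at 14.1, 12.4, 15.2 and 15.2 FPKM in mutants, against 15.2, 12.2 and 10.2 FPKM in controls (log2 fold change 0.18, SE 0.12; limma adjusted p = 0.624). Its highest library was control 1 and its lowest control 3, so the groups overlapped, and without control replicate 3 the value was 0.06.

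Loxl1, needed for elastic fibre upkeep, leaned the other way, with 15.6, 8.72, 14.1 and 13.4 FPKM in mutants, against 16.7, 15.54 and 15.9 FPKM in controls. Mutant replicate 2 was far below the rest and mutant replicate 1 reached the controls, and the log2 fold change was -0.31 (SE 0.16; limma adjusted p = 0.479). Without mutant replicate 2 it was -0.15. Loxl3, required for palate and spine development in mice, was at 5.80, 5.73, 6.57 and 5.36 FPKM in mutants, against 5.16, 4.40 and 5.09 FPKM in controls. Its groups did not overlap, with mutant replicate 4 just above control replicate 1 (log2 fold change 0.22, SE 0.086; limma adjusted p = 0.283). Loxl4 was at 1.81, 2.06, 3.03 and 2.04 FPKM in mutants, against 2.24, 2.10 and 2.27 FPKM in controls, with mutant replicate 3 alone above the controls (log2 fold change 0.00, SE 0.12; limma adjusted p = 0.999).

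Many of the 54 genes were high together in mutant replicate 3 and low together in control replicate 3. Mutant replicate 3 had the highest value for 29 of them (53.7%, against 15.52% of all genes tested), and it was above their own mean for 38 of the 43 tested. Mutant replicate 1 and control replicate 3 had the lowest value for 17 each (31.5%, against 25% and 13.3% of all genes tested). On the log2(FPKM + 1) scale the median deviation from a gene's own mean was 0.15 in mutant replicate 3 and -0.12 in control replicate 3, while over all tested genes no library departed by more than 0.011. Among transcripts above 4672 bases, 18 of 27 genes described here had their highest value in mutant replicate 3, against 31.3% of all tested genes of that length. In the same class 11 of 27 had their lowest value in mutant replicate 1, against a larger share, 64.1%, of all tested genes.

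**Figure D4:**
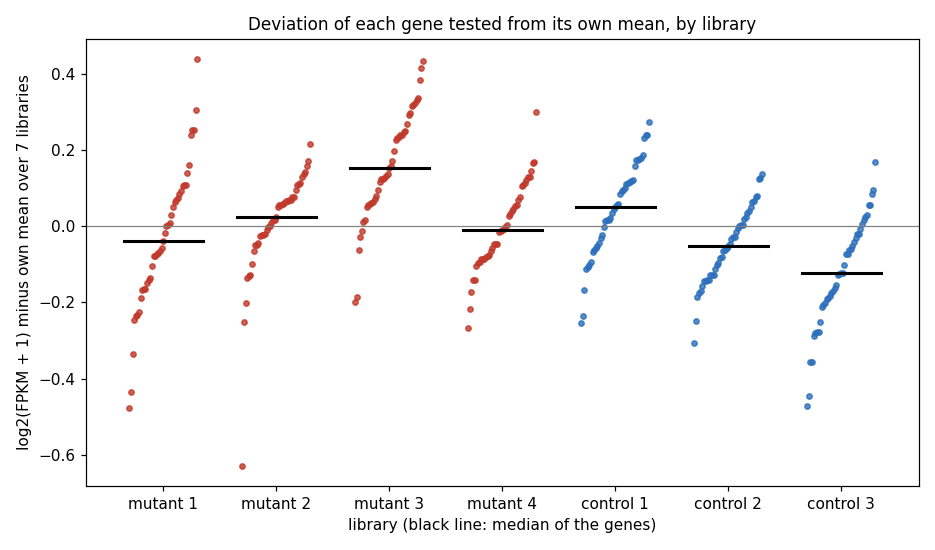
Deviation of each of the 43 genes tested from its own mean over the 7 libraries, log2(FPKM + 1), by library; mutants are red and controls blue, and black lines are medians. The median is highest in mutant replicate 3, at 0.15, and lowest in control replicate 3, at -0.12.

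Markers of several cell types differed between the genotypes. All 12 stromal markers were tested and 2 were higher by limma (6 at an unadjusted p under 0.05, 5 in the authors' deposited table). Of these 12, 11 had a fold change above 0, with a median of 0.33, and 7 had all mutants above all controls. For comparison, limma called 0.475% of all genes tested higher and 1.05% lower. At an unadjusted p under 0.05 the shares were 5.26% higher and 8.48% lower. DESeq2 had 1.75% of all genes higher and 3.74% lower in the authors' deposited table. All mutants lay above all controls for 5.93% of the genes tested. The stromal sum was 817, 711, 914 and 743 FPKM in mutants, against 725, 608 and 547 FPKM in controls. It was highest in mutant replicate 3, second highest in mutant replicate 1 and lowest in control replicate 3. Markers of ureteric bud and collecting duct went both ways. Of these 8, 5 had a fold change above 0 and 3 below. By limma 1 was called higher and 0 lower, and the authors' deposited table had 4 higher and 2 lower. Their sums were 231 to 263 FPKM in mutants and 201 to 220 FPKM in controls. Nephron markers were lower. Of 7 podocyte markers 4 were lower by limma, with sums of 117 to 137 FPKM in mutants and 182 to 198 FPKM in controls. Of 8 nephron progenitor markers 4 were lower and 1 higher, with sums of 126 to 150 FPKM in mutants and 192 to 201 FPKM in controls. Of 8 leukocyte markers, 0 were called by limma (5 higher at an unadjusted p under 0.05 and 1 in the authors' deposited table), with sums of 40.3 to 46.2 FPKM in mutants and 35 to 35.6 FPKM in controls. The 6 endothelial markers, 0 called by limma (1 at an unadjusted p under 0.05, 0 in the authors' deposited table), summed to 175 to 181 FPKM in mutants and 162 to 171 FPKM in controls. Of 6 smooth muscle and pericyte markers, 1 had a fold change above 0 and 5 below. By limma 0 were called, and the authors' deposited table had 1 higher and 1 lower. Their sums overlapped, at 108 to 150 FPKM in mutants and 137 to 199 FPKM in controls. The skeletal muscle list, of which 5 of 7 markers are listed, summed to 66.4 FPKM in control replicate 1. It summed to 10.3 to 12.7 FPKM in every other library. In whole kidneys, more cells of a type and more RNA per cell cannot be told apart, and the part of these cell types in the values above was not tested. The embryonic beta-globin gene Hbb-y, an early globin whose share falls during gestation, was at 1.38%, 1.53%, 10.5% and 2.24% of Hbb-bs FPKM in mutants, against 1.34%, 1.39% and 3.45% in controls. With this ratio as a covariate limma called 0 of the 43 genes; Mmp2 had a log2 fold change of 0.33, Adamtsl4 of 0.42 and Adamts19 of 0.26.

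Other genes of the same pathways were taken from 5 lists. Among 19 tested matrix proteases and activators outside the families, 0 passed by limma in either direction (0 higher and 6 lower at an unadjusted p under 0.05, 2 lower in the authors' deposited table; median log2 fold change -0.029). Over all genes tested, 8.48% were lower at an unadjusted p under 0.05, and 3.74% were lower in the authors' deposited table. The smallest p belonged to Mep1b, a meprin subunit of the proximal tubule brush border, at 3.94, 2.41, 0.670 and 2.03 FPKM in mutants, against 9.18, 8.84 and 8.10 FPKM in controls (log2 fold change -1.67, SE 0.33; limma adjusted p = 0.0676). Hpn, the serine protease hepsin, was at 9.37 ± 2.15 FPKM in mutants and 13.8 ± 1.26 FPKM in controls (limma adjusted p = 0.144). Both lay lower in every mutant than in any control. The 7 proximal tubule markers, all listed, summed to 25.1 to 53.7 FPKM in mutants and 73.2 to 89.3 FPKM in controls, with Mep1b lowest in the library where that sum was lowest; their part in its level was not tested.

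Of 8 other protease inhibitors tested, 1 fell and 7 did not pass (median log2 fold change 0.031). At an unadjusted p under 0.05, 1 was higher and 2 lower, and the authors' deposited table had 0 higher and 1 lower. Over all genes tested, limma called 0.475% higher and 1.05% lower, and at an unadjusted p under 0.05 5.26% and 8.48%. DESeq2 had 1.75% of all genes higher and 3.74% lower. The gene of this list that fell was Spock2, a matrix proteoglycan of the testican family. Its place in the list does not show that it inhibits the proteases described here. Spock2 was at 29.0, 30.9, 33.1 and 29.7 FPKM in mutants, against 45.0, 41.3 and 44.5 FPKM in controls (log2 fold change -0.49, SE 0.067; limma adjusted p = 0.0156). Of 17 other collagen-modifying and crosslinking enzymes, 1 rose and 16 did not pass (median 0.068). At an unadjusted p under 0.05, 4 were higher and 1 lower, and the authors' deposited table had 2 higher and 2 lower. Tgm2, a transglutaminase that crosslinks matrix proteins by another bond than the lysyl oxidases, was at 19.9, 20.3, 19.5 and 18.2 FPKM in mutants, against 15.7, 15.2 and 13.8 FPKM in controls (log2 fold change 0.36, SE 0.068; limma adjusted p = 0.0438). Its groups were well apart, unlike those of Lox and Loxl2.

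Of 17 elastic fibre and proteoglycan substrates, 1 fell and 16 did not pass, while 13 had a fold change above 0 (median 0.089). At an unadjusted p under 0.05, 5 of the 17 were higher and 1 lower, against 5.26% and 8.48% of all genes tested. The authors' deposited table had 1 higher and 1 lower in this list. Papln encodes papilin, a matrix protein that shares domains with the ADAMTS family, and was at 0.815, 0.821, 0.665 and 0.713 FPKM in mutants, against 1.73, 1.54 and 1.32 FPKM in controls (log2 fold change -0.53, SE 0.089; limma adjusted p = 0.0319). Every mutant was near or below 0.8 FPKM and every control above 1.3 FPKM. Of the 8 tetraspanin and iRhom partners of Adam10 and Adam17 tested, 0 passed by limma (1 higher and 1 lower at an unadjusted p under 0.05, 0 in the authors' deposited table; median -0.063). Tspan15, which directs Adam10 to cadherins, averaged 14.2 ± 0.55 FPKM in mutants and 12.7 ± 0.28 FPKM in controls. Rhbdf2, which carries Adam17 to the cell surface, averaged 3.61 ± 0.45 FPKM in mutants and 4.33 ± 0.22 FPKM in controls. The calls of Spock2, Tgm2 and Papln were all lost when mutant replicate 2 or 4 or any single control was left out.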

How the data were processed

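Per the labels' protocols, Qiagen RNeasy kits gave the RNA of whole kidneys, and NEB Ultra II Directional kits the libraries. Per the submitters' processing notes, STAR 2.6.0c, HTSeq 0.6.1p2 and DESeq2 were used on mm39 (GRCm39), after Trim Galore 0.5.0 and FastQC 0.11.5; gene length and strand setting are not given in the sources used here. The authors deposited a table of 16167 genes with an FPKM per library and, per the file headers, the DESeq2 columns: the mean normalized signal, log2 fold change and its error, a test score, and p-values and adjusted p-values (14 genes have none).

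Genes with at least 1 FPKM in at least 3 libraries (13466; 2701 left out) were log2-transformed after adding 1 and compared by limma 3.58.1 under R 4.3.3. Its empirical Bayes step used a trend and was robust; tests were two-sided and adjusted over all genes tested. Read numbers were recovered from mean signal, FPKM and a size factor; 100% of entries were within 0.05 of a whole number. Transcript lengths are the longest transcripts of GENCODE M21, found for 16150 genes. Named in full were all genes called by either test, the TIMP and LOX genes, and for each other family the 2 with the highest level and the 2 with the smallest p; from other lists, up to 4 called genes, or else the 2 with the smallest p; single-gene names outside this rule were chosen after their values were seen. Members and lists were chosen with earlier results of these data known. The fit was tested on simulated data. Python 3.11.15, pandas 2.3.3 and matplotlib 3.10.9 made tables and plots.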

Additional observations from a re-analysis of the deposited data

Results flagged for a closer look

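Timp1 in mutant replicate 1, at 12.8 FPKM, lay far from the other 3 mutants (8.58 to 8.97 FPKM): its gap to the nearest was 0.907 of the range of the 4 libraries. About 1 in 20 groups would be picked out by chance, and 21 genes were looked at in the mutants. Timp1 is among the tested genes with the shortest transcripts (up to 1981 bases), of which 41.2% had their highest value in that library; the part of transcript length in this value was not tested.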

How the results depend on the processing

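The number of genes called among all tested was 206, and it was 109 with a pseudocount of 0.1, 60 with a minimum of 5 FPKM, 1302 with limma's array weights, 2 with the replicate block, 416 with the transcript length trend removed (lowess, chosen after seeing the data), 886 in the authors' deposited table, and 11 to 486 when 1 library was left out. Of the genes described, 4 were higher (Mmp2, Mmp15, Adamtsl4, Adamts19) and 1 lower (Adam15) with array weights, 3 higher in the authors' deposited table, and 0 under every other setting run, among them limma-voom on the recovered reads and each omission. The 3 calls in the other pathway lists became 1 with a minimum of 5 FPKM, 15 with array weights, 0 with the replicate block, 5 with the beta-globin covariate, 9 in the authors' deposited table, and 0 to 6 with 1 library left out. The causes of these shifts were not tested. Deviations of same-numbered libraries from their group means correlated at -0.156, 0.028 and 0.098, and those of differently numbered libraries at -0.253 to 0.141. Replicate numbers thus gave no sign of pairing, but so few values cannot show that the libraries were unpaired. Under the block Mmp2 had an adjusted p of 0.212.

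The fold changes of 8 genes changed sign under some alternative, without a call; for Lox and Timp1 the reported values were 0.165 and 0.159, and for the others at most 0.05 in size. Timp2 was at -0.003 with quantile normalization, -0.038 with array weights, -0.002 with limma-voom and -0.053 to 0.054 with 1 library left out (below 0 without mutant replicate 3 or control replicate 3). Timp3 was at 0.001 with quantile normalization and with the length trend removed, 0.010 with the replicate block, 0.058 with the globin covariate, and -0.109 to 0.083 with 1 library left out (above 0 without mutant replicate 3 or 4 or control replicate 1 or 2). Timp1 was at -0.052 with array weights. Loxl4 was at -0.005 with a pseudocount of 0.1, -0.009 with array weights, -0.021 with limma-voom, -0.071 with the globin covariate, -0.001 with the length trend removed, and -0.109 to 0.064 with 1 library left out (below 0 without mutant replicate 3 or control replicate 2). Lox was at -0.011 without control replicate 3 and at up to 0.268 with another library left out. Adamts9 was at 0.035 with array weights and at -0.169 to 0.088 with 1 library left out (above 0 without mutant replicate 1). Adamtsl1 was at 0.027 with quantile normalization, 0.011 with the replicate block, 0.030 with the length trend removed, and -0.097 to 0.089 with 1 library left out (above 0 without mutant replicate 1 or 4 or control replicate 1). Adamtsl5 was at -0.119 with array weights and at -0.085 to 0.131 with 1 library left out (below 0 without control replicate 3). Depth limits Adamtsl4, Adamtsl5, Mmp28 and the untested genes, with 21 to 425 reads per library.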
